A study of Homo sapiens with 4 samples.

Results

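10 genes of the TGF-beta pathway were followed after ADAR knockdown in a lung adenocarcinoma line. ADAR is the enzyme that edits adenosine to inosine in double-stranded RNA. The 10 are the ligand genes TGFB1, TGFB2 and INHBA, the ligand-binding protein gene LTBP3, the receptor genes TGFBR1 and TGFBR2, the signal transducer SMAD3, and the inhibitors SMAD7, SKIL and PMEPA1. Every probe that the platform annotation assigned to 1 of these 10 symbols was taken, which gave 20 of the 47322 probes on the array, for 10 of 20046 genes named there. The cells were H358, an established human lung adenocarcinoma line, and the array was an Illumina HT-12 BeadChip, which reads every probe on a number of beads. Both arms had been transfected, 1 with a scrambled sequence and 1 with an shRNA against ADAR (a hairpin RNA that directs degradation of the matching transcript), with 2 arrays in each. Time after transfection, the hairpin sequence and any selection of clones were not given in the sources used here. The design calls the samples of each group biological replicates without saying whether separate cultures were grown, so the p-values measure the spread between these samples, which may be partly technical.

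TGF-beta and activin ligands are secreted as dimers and bring together type II and type I receptor kinases on the cell surface. The activated type I receptor phosphorylates SMAD2 and SMAD3, which enter the nucleus with SMAD4 and bind DNA at short elements built on the letters CAGAC. In epithelial cells, those of the lung included, the pathway is known for arrest of growth and for loss of epithelial character, and it induces its own inhibitors, among them SMAD7, SKIL and PMEPA1.

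The upstream sequences of the 3 inhibitor genes that the pathway itself induces, and of TGFB2, which moved the other way, are shown because they carry the letters that SMAD3 and SMAD4 read. Each is the 250 bases before a RefSeq transcript start (GRCh38.p14), written 5′ to 3′ on the gene's strand, with CAGAC or its reverse complement GTCTG in capitals. Where a gene had several starts, the window with the most matches was taken, so the choice itself favours matches.
SMAD7 upstream (chr18:48950966-48951215, minus strand): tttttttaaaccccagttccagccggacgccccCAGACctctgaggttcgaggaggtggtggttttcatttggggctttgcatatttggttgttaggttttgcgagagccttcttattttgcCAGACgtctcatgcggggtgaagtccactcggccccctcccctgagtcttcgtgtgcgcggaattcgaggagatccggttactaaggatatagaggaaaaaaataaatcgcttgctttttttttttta
SKIL upstream (chr3:170357465-170357714, plus strand): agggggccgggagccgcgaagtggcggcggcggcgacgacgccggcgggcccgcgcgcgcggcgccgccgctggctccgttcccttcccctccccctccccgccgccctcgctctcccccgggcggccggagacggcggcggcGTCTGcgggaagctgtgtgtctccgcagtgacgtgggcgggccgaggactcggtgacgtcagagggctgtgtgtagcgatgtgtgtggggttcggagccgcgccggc
PMEPA1 upstream (chr20:57710578-57710827, minus strand): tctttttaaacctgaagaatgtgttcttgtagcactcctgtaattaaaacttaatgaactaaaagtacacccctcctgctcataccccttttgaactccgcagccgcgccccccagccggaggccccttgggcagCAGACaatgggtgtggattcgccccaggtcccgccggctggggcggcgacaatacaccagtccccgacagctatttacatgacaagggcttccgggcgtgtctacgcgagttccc
TGFB2 upstream (chr1:218345086-218345335, plus strand): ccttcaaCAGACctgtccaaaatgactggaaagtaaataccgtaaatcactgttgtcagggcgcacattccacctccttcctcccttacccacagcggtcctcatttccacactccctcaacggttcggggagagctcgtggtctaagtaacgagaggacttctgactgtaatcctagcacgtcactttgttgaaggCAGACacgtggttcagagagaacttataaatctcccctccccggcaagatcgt
SMAD7 held the letters 217 and 128 bases before the start, SKIL at 107, PMEPA1 at 115, and TGFB2 at 243 and 53. Over the 10 genes 12 of 28 windows held a match, and 6 genes held 1 in any window (TGFB2, TGFBR1, SMAD3, SMAD7, SKIL and PMEPA1). Of all 34943 upstream windows 38.0% held a match, and 42.8% of genes had 1 in any window, so such a match is common and describes the letters only. Repeated windows were left out of that background, but the 28 were not filtered in this way. Genes with more windows also have more room for a match, so the shares are not strictly alike.

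Some facts of the 4 arrays bear on every value. The scrambled arrays had 20901 and 20031 probes above background against 18722 and 19294 after ADAR knockdown, and the upper quartile of raw signal was 143 and 115 against 94.5 and 92.1. Over the 21263 tested probes normalized values correlated at 0.982 and 0.986 within the groups and at 0.799 to 0.823 across them, a description across probes that are not independent. ADAR itself fell by 1.01 on the log2 scale (SE 0.22, limma adjusted p = 0.00637) at its brightest probe, but by 0.85 without ADAR shRNA replicate 1, where it did not pass (adjusted p = 0.0510), and its other tested probe, above background on all 4 arrays, read 9.45 and 8.90 against 8.81 and 9.16, so that the groups overlapped (-0.19, adjusted p = 0.562). Of 12 lung epithelial markers, 7 were above background on both scrambled arrays and 4 on both ADAR shRNA arrays, while NAPSA and the surfactant genes SFTPA1, SFTPB, SFTPC and SFTPD were above background on no array. Their summed linear signal was 20695 and 24835 with the scrambled sequence against 3170 and 2873 with ADAR shRNA. Of the 7 tested, 6 fell. EPCAM, CDH1 and NKX2-1 were not above background on either ADAR shRNA array. They were thus tested through the scrambled arrays alone, and their lower values after knockdown were built into their selection. Of all genes tested, each by its brightest probe, 24.1% rose and 30.2% fell. Of 7 haematopoietic markers with a probe, CD14 and CD68 rose, and the summed signal was 765 and 902 against 2717 and 3470, but PTPRC, which defines leukocytes, and 4 others were above background on no array. Of 9 fibroblast markers 3 were tested, of which 1 rose and 2 fell (summed signal of the 9, 326 and 332 against 252 and 261). The falls were of COL1A1 and LUM, which were above background on the scrambled arrays alone. Their lower values after knockdown were likewise built into their selection. Of 7 endothelial markers 6 were above background on no array and the 1 tested did not pass (160 and 163 against 145 and 155). The part of these marker shifts in the results was not tested.

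Testing required a detection p (a comparison with the array's negative controls) under 0.05 on 2 or more arrays. Of the 20 member probes 12 met this, from 7 genes, and the other 8 did not. Among the 12, 1 rose and 9 fell at an adjusted p under 0.05, and 2 did not pass. The 9 falls came from 5 genes, as PMEPA1, TGFBR2 and SMAD7 each had more than 1 fallen probe. PMEPA1 probe ILMN_1657823, SKIL probe ILMN_1736834 and TGFBR2 probe ILMN_1744862 met the requirement through the scrambled arrays alone. Their lower values after knockdown were thus built into their selection, and they count in the numbers given here. Over all tested probes 50.5% passed, 24.2% as rises and 26.2% as falls, so a call alone is common here. The 12 member probes had a median log2 difference of -1.08, against 0.00 over all tested probes, whose lower and upper quartiles were -0.64 and 0.58. The members were chosen with earlier results of these data known, which may bear on this contrast. The 2 groups did not overlap at 11 of the 12 probes, and at 75.7% of all tested probes. In bulk RNA a lower level can reflect fewer expressing cells or less RNA per cell, and these cannot be told apart. Values are log2 signals after background correction with an offset, which understates fold changes of dim probes.

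**Figure D1:**
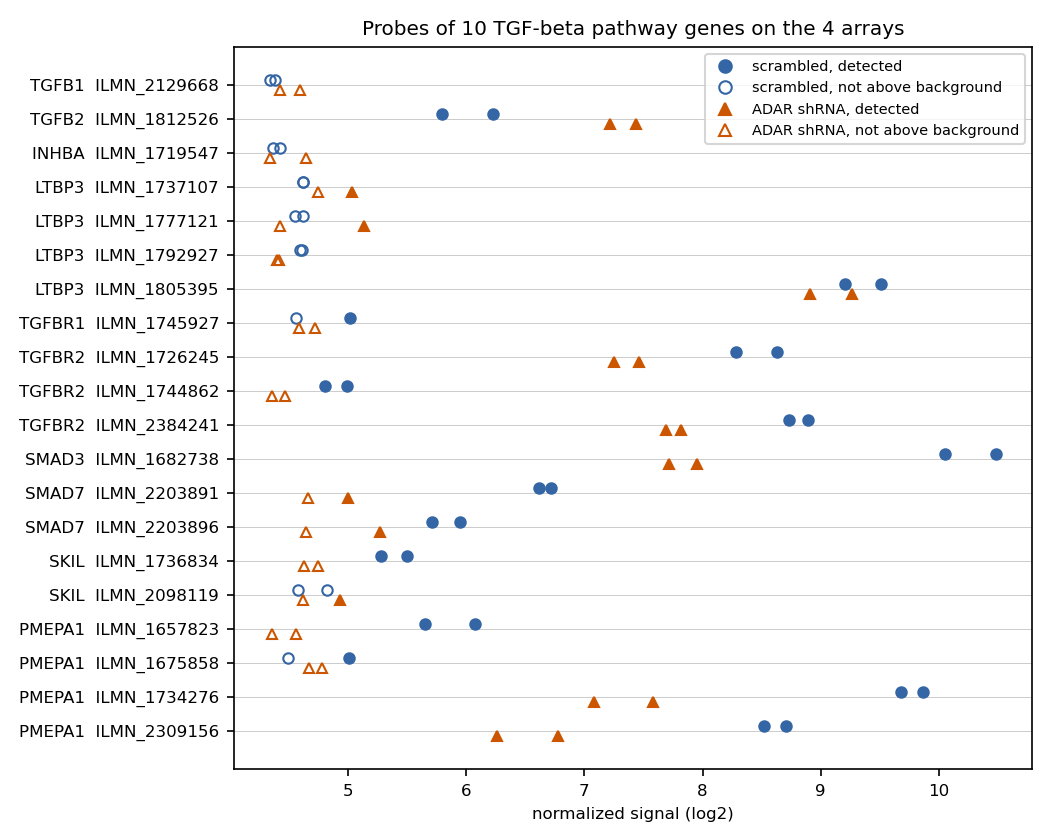
Normalized log2 signal (x axis) of each of the 20 member probes (rows) on the 2 scrambled arrays (blue circles) and the 2 ADAR shRNA arrays (orange triangles), filled where the detection p was under 0.05 and open otherwise. SMAD3 and the brightest PMEPA1 probe lie far lower on the ADAR shRNA arrays, TGFB2 lies higher, and the probes of TGFB1 and INHBA sit at background on all 4 arrays.

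Among the ligands TGFB2 was the only member probe above background, and it was higher with ADAR knockdown. TGFB2 encodes a ligand that needs the co-receptor TGFBR3 for efficient binding. Its probe ILMN_1812526 read 6.22 and 5.80 in scrambled cells against 7.44 and 7.22 after knockdown (normalized log2 signal). Both ADAR shRNA arrays lay above both scrambled arrays, and TGFB2 rose by 1.32 (SE 0.22, limma adjusted p = 0.00195), a 2.49-fold difference that 9.59% of tested probes matched or exceeded. The raw signals were much closer, at 144 ± 6.53 and 94.3 ± 5.68 (bead standard error) without and 165 ± 9.74 and 145 ± 8.89 with ADAR shRNA, with scrambled replicate 1 and ADAR shRNA replicate 2 almost level. The call therefore depended on the scaling between arrays. Median scaling gave 0.77 (adjusted p = 0.0526) and leaving the arrays unnormalized gave 0.64 (adjusted p = 0.128). In these settings the median of all tested probes was itself -0.38 and -0.52, so that TGFB2 stood 1.16 above that median in either. Cyclic loess, a further scaling between arrays, kept the call (1.31, adjusted p = 0.00218), as did the authors' processed values (1.58, adjusted p = 0.0253). With 1 array left out the difference ranged from 1.08 to 1.49.

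TGFB1, the most widely expressed TGF-beta ligand, was not above background on any array. Its 1 probe, ILMN_2129668, had raw signals of 51.5 and 50.6 with the scrambled sequence against 56.2 and 49.7 with ADAR shRNA, with detection p-values from 0.226 to 0.708. INHBA, whose product dimerizes to form activin A, was at the same level, with raw signals of 53.2 and 52.5 against 57.5 and 46.0 and no detection. A probe at background sets no more than an upper limit on what it can see, and each of these 2 genes had 1 probe only.

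LTBP3 encodes a latent TGF-beta binding protein, which tethers the inactive ligand to the extracellular matrix. Its detected probe, ILMN_1805395, read 9.21 and 9.51 in scrambled cells against 8.91 and 9.26 after knockdown. The groups overlapped, and the difference of -0.27 (SE 0.22, limma adjusted p = 0.332) did not pass. The raw signals of this probe were 894 and 858 against 379 and 469. Under median scaling it fell by 0.98 (adjusted p = 0.00770), which is -0.60 relative to the median of all tested probes at that scaling (-0.38). The other 3 LTBP3 probes were above background on 0 or 1 array each and were not tested.

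Of the receptors, TGFBR2 fell and TGFBR1 was close to background. TGFBR2 encodes the type II receptor, which binds the ligand first. Probe ILMN_2384241 read 8.89 and 8.73 in scrambled cells against 7.69 and 7.82 after knockdown. TGFBR2 fell by 1.06 there (SE 0.19, limma adjusted p = 0.00283), a 2.08-fold difference. The raw signals were 729 and 517 against 188 and 198.

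A different TGFBR2 probe, ILMN_1726245, gave nearly the same size. It read 8.63 and 8.29 against 7.25 and 7.46 and fell by 1.10 (SE 0.21, limma adjusted p = 0.00361). At both probes the groups stood apart. About 1 in 7 tested probes was as low or lower, at 14.7% for the former and 13.9% for the latter. The remaining TGFBR2 probe, ILMN_1744862, was dim, with raw signals of 70.9 and 68.9 in scrambled cells against 52.1 and 46.8, not above background, after knockdown. It differed by -0.49 (adjusted p = 0.0672). TGFBR1, the type I receptor kinase that phosphorylates SMAD3, had 1 probe, above background on scrambled replicate 1 only, with raw signals of 78.5 and 57.4 against 59.2 and 54.5, and was not tested.

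SMAD3, the receptor-activated transcription factor at the centre of the pathway, gave 1 of the 2 largest differences among the members. Probe ILMN_1682738 read 10.05 and 10.48 in scrambled cells against 7.71 and 7.95 after knockdown. SMAD3 fell by 2.43 (SE 0.22, limma adjusted p = 9.7e-05), a 5.39-fold difference, and 2.93% of tested probes were as low or lower. The raw signals were 1526 ± 63.5 and 1614 ± 54.3 (bead standard error) against 190 ± 7.31 and 212 ± 22.3. All alternatives kept the call, with differences from -3.21 with no normalization to -2.21 without scrambled replicate 2.

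The 3 feedback inhibitors fell as well at their brightest tested probes. PMEPA1 encodes a membrane protein that captures SMAD2 and SMAD3 away from the receptor. Its brightest probe, ILMN_1734276, read 9.68 and 9.86 in scrambled cells against 7.09 and 7.58 after knockdown. PMEPA1 fell by 2.43 there (SE 0.23, limma adjusted p = 0.000107), with raw signals of 1206 and 1085 against 139 and 174. Probe ILMN_2309156 read 8.71 and 8.52 against 6.26 and 6.78 and fell by 2.09 (SE 0.23, adjusted p = 0.000245).

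The dimmer PMEPA1 probe ILMN_1657823 was above background in scrambled cells only. It read 6.07 and 5.65 there against 4.36 and 4.56, and fell at least 1.92-fold (fitted log2 difference -1.40, adjusted p = 0.00141). "At least" here compares the scrambled mean with the lowest signal that counts as detected on the ADAR shRNA arrays. Such a fold, here and below, allows for the detection limit but not for the spread between arrays. PMEPA1 probe ILMN_1657823 met the detection filter through the scrambled arrays alone, like SKIL probe ILMN_1736834 and TGFBR2 probe ILMN_1744862. A lower value after knockdown was thus built into the selection of these probes. The remaining PMEPA1 probe, ILMN_1675858, was detected on 1 array and was not tested.

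SMAD7 encodes the inhibitory SMAD that blocks the type I receptor and recruits ubiquitin ligases to it. Probe ILMN_2203891 read 6.72 and 6.62 in scrambled cells against 5.002 and 4.66 after knockdown. SMAD7 was at background on ADAR shRNA replicate 2 and just above it on replicate 1, and fell at least 3.30-fold (fitted log2 difference -1.84, SE 0.21, limma adjusted p = 0.000251). The other SMAD7 probe, ILMN_2203896, read 5.71 and 5.95 against 5.27 and 4.65, and differed by -0.87 (SE 0.25, adjusted p = 0.0221), at least 1.67-fold. That smaller difference passed neither without scrambled replicate 2 (-0.74, adjusted p = 0.104) nor without ADAR shRNA replicate 2 (-0.58, adjusted p = 0.132) nor when undetected probes were tested too (adjusted p = 0.0771).

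SKIL encodes SnoN, a nuclear protein that represses SMAD complexes on DNA. Its tested probe, ILMN_1736834, was dim, reading 5.28 and 5.50 in scrambled cells against 4.75 and 4.63, not above background, after knockdown. It fell at least 1.38-fold (fitted log2 difference -0.70, SE 0.20, limma adjusted p = 0.0193). The call was lost without scrambled replicate 2 (-0.58, adjusted p = 0.0849). Leaving out ADAR shRNA replicate 1 gave -0.81 (adjusted p = 0.0516), and leaving out replicate 2 gave -0.68 (adjusted p = 0.0869), again without a call. Uncorrected background gave -0.37 (adjusted p = 0.0598), the larger offset of 50 gave -0.34 (adjusted p = 0.0636), and the authors' processed values gave -0.70 (adjusted p = 0.0510). The other SKIL probe, ILMN_2098119, did not read lower, at 4.58 and 4.82 in scrambled cells against 4.62 and 4.94 after knockdown. Its raw signals were 63.2 and 64.6 against 56.7 and 61.7. It was above background on ADAR shRNA replicate 2 only and was not tested.

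**Figure D2:**
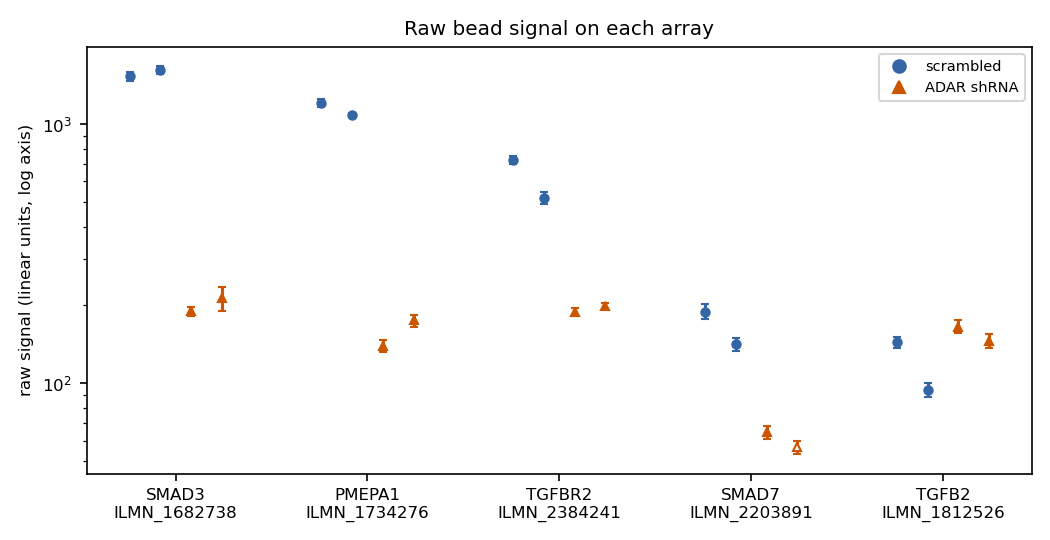
Raw bead signal (y axis, linear units on a log axis) of 5 member probes on each array, with bars for the bead standard error, circles for scrambled and triangles for ADAR shRNA arrays, open where not above background. SMAD3, PMEPA1, TGFBR2 and SMAD7 are lower on both ADAR shRNA arrays, whereas TGFB2 on scrambled replicate 1 (144) is level with ADAR shRNA replicate 2 (145).

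The direction of the 9 falls did not depend on how the arrays were scaled, but their size did. Under median scaling 10 of the 12 member probes fell and 0 rose, and with no normalization between arrays 11 fell and 0 rose. All probes moved with them: of the called probes 48.0% rose in the quantile-normalized data, 24.97% under median scaling and 19.2% with no normalization. Relative to the median of all tested probes under median scaling, SMAD3 lay at -2.70, the brightest PMEPA1 probe at -2.69, TGFBR2 at -1.35 and -1.36, SMAD7 at -1.71 and -0.73, and SKIL at -0.43.

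**Figure D3:**
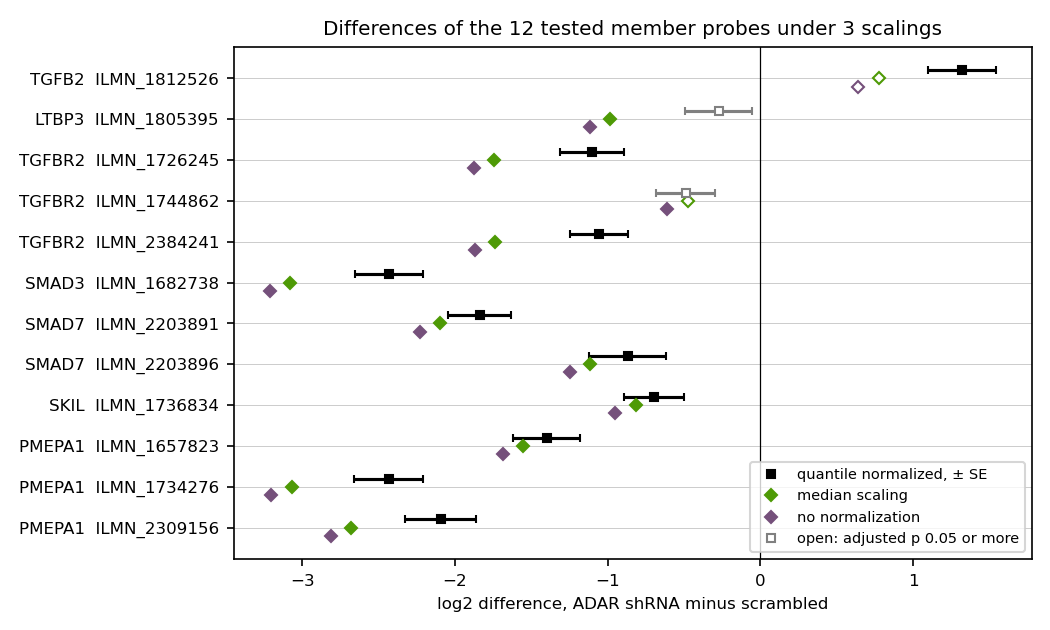
Log2 difference (x axis, ADAR shRNA minus scrambled) of the 12 tested member probes after quantile normalization (squares, bars show the moderated SE), median scaling and no normalization (diamonds), filled where the adjusted p was under 0.05. Every probe other than TGFB2 lies below 0 under all 3 scalings, and of these 3 only quantile normalization gives a TGFB2 call.

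Other genes of the pathway were grouped by role, each gene by its brightest tested probe, and read against all 12197 genes tested, of which 24.1% rose and 30.2% fell with a median log2 difference of -0.08. Among genes of ligand processing and activation, 12 of 23 were tested, 3 rose, 4 fell and 5 did not pass, with a median of -0.20. FST, which encodes follistatin, a secreted protein that binds and neutralizes activins, read 6.03 and 5.81 in scrambled cells against 10.46 and 10.70 after knockdown. FST rose by 4.66 (SE 0.20, limma adjusted p = 4.1e-06), and its other probe rose by 3.04. FSTL3, a related activin-binding protein, rose by 1.79 (SE 0.23), from 7.22 and 7.77 to 9.29 and 9.29.

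INHBB, which encodes the activin B subunit, moved opposite to these 2 inhibitors of activin. It read 8.28 and 7.95 in scrambled cells against 4.46 and 5.03, with 1 of the 2 ADAR shRNA arrays above background, and fell at least 8.74-fold (limma adjusted p = 3.6e-05). THBS1, which encodes thrombospondin 1, a matrix protein that can activate latent TGF-beta, fell at least 6.44-fold, from 7.70 and 7.51 to a level not above background.

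Among receptors and their partners, 12 of 15 genes were tested, 6 rose, 3 fell and 3 did not pass, with a median of 0.65. BAMBI, a decoy receptor that lacks a kinase domain, was at background in scrambled cells (4.64 and 4.55) and read 8.25 and 8.49 in ADAR shRNA cells, so it rose at least 11.7-fold (limma adjusted p = 8.1e-06). BAMBI met the detection filter through the ADAR shRNA arrays alone, so a higher value there was built into its selection. ACVR1B, the type I receptor for activin, rose by 2.68 (SE 0.21), from 6.23 and 6.41 to 8.83 and 9.18. These 2 rises lay opposite to the fall of TGFBR2. DAB2, an endocytic adaptor that links receptors to SMADs, fell by 1.95 (SE 0.19) with its other probe at -1.86. FKBP1A, which binds the type I receptor and restrains it, fell by 0.95 (SE 0.20), while its other 3 probes differed by -0.70 to -0.35 and did not pass.

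Among SMADs, their cofactors and their turnover, 20 of 23 genes were tested, 5 rose, 3 fell and 12 did not pass, with a median of -0.08. SMAD2, the closest relative of SMAD3 in this pathway, rose by 1.43 (SE 0.20, limma adjusted p = 0.000759), from 5.32 and 5.39 to 6.64 and 6.92, and by 0.88 at its other tested probe. SMAD4, their common partner, differed by -0.12 (adjusted p = 0.678), and it is named here with its value already known. NEDD4L, a ubiquitin ligase that acts on activated SMAD2 and SMAD3, rose by 1.73 (SE 0.22). The corepressor gene TGIF2 fell by 2.58 (SE 0.34), and RBL1, which encodes the p107 partner of SMAD3, fell at least 1.72-fold. This list depended most on scaling, with 2 rises and 11 falls under median scaling.

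Among target genes of the pathway in epithelial and mesenchymal cells, 19 of 26 were tested, 6 rose, 6 fell and 7 did not pass, with a median of 0.15. The type IV collagen genes COL4A1 and COL4A2 rose at least 18.3-fold and at least 6.19-fold, from levels at or near background to 9.35 and 9.08, and to 7.96 and 6.95. SNAI2, which encodes the transcriptional repressor Slug, fell at least 19.2-fold (limma adjusted p = 3e-06), from 9.14 and 9.23 to a level not above background, with its other probe at -2.70. CCN1, a matricellular protein gene, fell by 3.24 (SE 0.25), from 10.19 and 10.68 to 7.42 and 6.97. Over all genes tested 24.1% rose and 30.2% fell. These lists were not tested as sets. Among the called genes of these lists, THBS1, RBL1, COL1A1 and SNAI2 met the detection filter through the scrambled arrays alone. BGN, ACVR1C, BAMBI and COL4A2 met it through the ADAR shRNA arrays alone. The direction of the differences of all these genes was thus built into their selection, and they count in the numbers given for the lists.

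**Figure D4:**
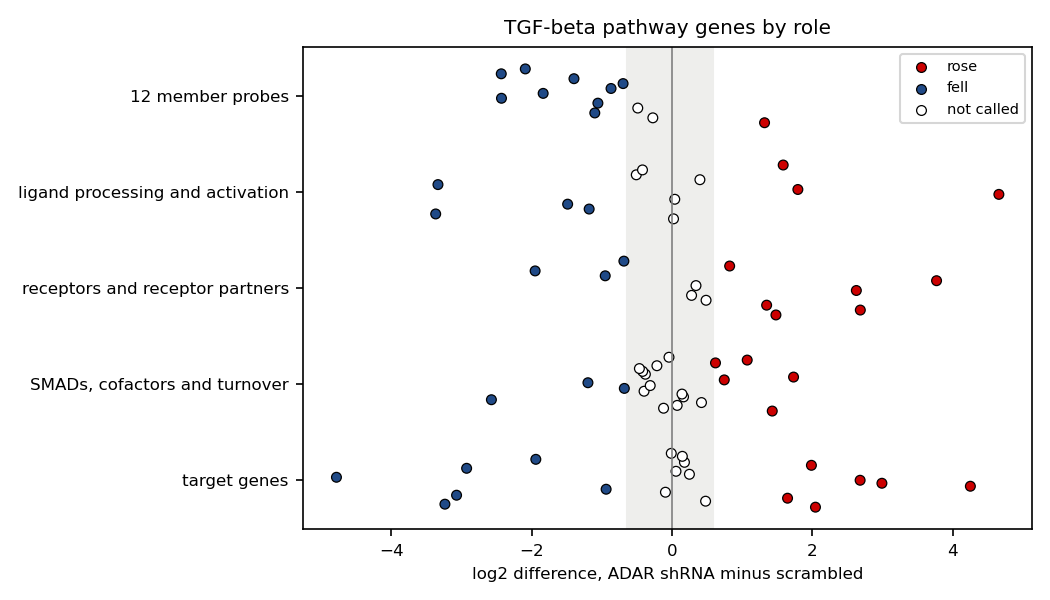
Log2 difference (x axis, ADAR shRNA minus scrambled) of the 12 tested member probes and of the tested genes in 4 lists of other pathway genes, 1 point each, red for a rise, blue for a fall and white where the adjusted p was 0.05 or more. The grey band runs from -0.64 to 0.58, the quartiles of all tested probes, and most member probes lie to its left while each list has points on both sides.

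Likeness of pattern was measured as the Euclidean distance over the 4 arrays between log2 values centred on each probe's mean. Nearest to the TGFB2 probe were probes of FCGR3B, TMEM114 and TRIP6, at distances of 0.044, 0.078 and 0.079. Nearest to the brightest PMEPA1 probe were probes of RNF212, PLEKHF1 and LRRCC1, at distances of 0.035, 0.043 and 0.074. With 4 arrays in 2 groups many probes share such a pattern, and the distance describes these arrays only.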

How the data were processed

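Total RNA was measured on 4 arrays, 2 of H358 cells given a scrambled sequence and 2 given ADAR shRNA. The authors deposited a table of mean signal intensity per probe on a linear scale, with bead counts, bead standard errors and detection p-values, per the file headers. GenomeStudio produced it, per the submitters' processing notes, with no version given. The authors also deposited processed intensity values, of which about 25.1% to 25.2% are below 0 and whose normalization is not given in the sources used here. They served as an alternative, with values under 16 set to 16.

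Raw intensities were background corrected with limma 3.58.1 in R 4.3.3 (normexp, background taken from the detection p-values, offset 16), quantile normalized and log2 transformed. Each of 21263 probes with a detection p under 0.05 on at least 2 arrays was compared with lmFit and eBayes (2 residual and 5.68 prior degrees of freedom), 2-sided, with Benjamini-Hochberg adjustment over all of them. Rises and falls are calls at an adjusted p under 0.05, and differences are ADAR shRNA minus scrambled, with moderated standard errors. The precision is limited by 2 arrays per group and by 9 to 33 beads per member probe.

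Symbols came from the platform annotation, with 1 symbol for 30113 probes and several for 8, and 17201 probes are unnamed here. A group with no array, or 1 of 2, above background gives an "at least" fold, in which each dim array takes the higher of its lowest detected value and the probe's own value. Named genes were all member probes, ADAR, up to 2 rises and 2 falls per list, and the 3 nearest probes in pattern to the largest rise and the largest fall. The members and lists were chosen with earlier results of these data known. After scaling, bead error was exceeded by 40.6% of tested probes in the scrambled pair and 27.8% in the knockdown pair, against a nominal 5%. They were thus not the same scan deposited again, and were counted as the labels give them, but bead error leaves out labelling and hybridization, so repeat arrays of the same RNA cannot be told apart from separate samples. The fit was tested on simulated data. Alternatives changed the normalization, background correction, filter, variance model, replicate block, probe choice and replicates.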

Additional observations from a re-analysis of the deposited data

How the results depend on the processing

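Over 15 alternatives, 156 of 170 recomputed differences of tested member probes stayed on their side of the threshold, 11 lost the call, 3 gained it and 0 took the opposite sign. Among the 156, TGFBR2 probe ILMN_1744862 read 0 with the authors' processed values, all 4 of them raised to the floor, and so had no direction there. SMAD3, both brighter TGFBR2 probes, the 3 PMEPA1 probes and SMAD7 probe ILMN_2203891 kept theirs wherever they were tested. The count of member probes that rose was 0 under median scaling and 0 without normalization. The gains were LTBP3 probe ILMN_1805395 under these settings (-0.98 and -1.12) and TGFBR2 probe ILMN_1744862 with no normalization (-0.61). The count of member probes that fell was 5 of 7 with detection p under 0.01 on all 4 arrays and 5 of 7 with the brightest probe per gene, settings that test fewer probes. It ranged from 7 to 9 with 1 array left out. The ADAR probe ILMN_2320964 ranged from -0.46 to 0.084 with 1 array left out, the highest and only positive value being without scrambled replicate 1. ADAR passed at this probe under median scaling (-0.90) and with no normalization (-1.04).

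Over all tested probes the rises and falls numbered 5153 and 5578, against 2825 and 8487 under median scaling and 2130 and 8986 with no normalization, while 3347 fell under the stricter detection filter and 3107 genes rose with the brightest probe per gene. Among SMADs, cofactors and turnover 2 rose and 11 fell under both scaling alternatives, 1 fell under the stricter filter, and 3 to 4 rose with 1 array left out. Under the stricter filter 2 genes of ligand processing fell, and 3 target genes rose and 3 fell. Dim probes shrank most with more offset: PMEPA1 probe ILMN_1657823 read -0.72 and SMAD7 probe ILMN_2203891 read -1.12 with an offset of 50.

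With the replicate block, 1 member probe rose and 9 fell, 5573 and 5995 of all tested probes rose and fell, and no member call changed. Same-numbered arrays deviated together at a correlation of 0.14 over probes, and with 2 pairs the numbers were not taken to pair the arrays. Probes near background limit what can be seen for TGFB1, INHBA, TGFBR1 and SKIL.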
